A study of Arabidopsis thaliana with 24 samples.

Results

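Chloroplast-encoded genes were taken as the rows of the deposited count table whose identifier begins with ATCG, which gave 73 of 18430 genes. The table was made from mRNA libraries of whole Arabidopsis thaliana seedlings, with 12 libraries in 4 groups of 3. All plants were 14 days old and had grown on plates with 3% sucrose under white light of 125 µmol per m2 per s, with 16 h of light a day. Wild-type (wt) and bzip68 mutant seedlings were sprayed either with water (mock) or with 5 mM H2O2, and both sprays held 0.01% of the detergent Triton X-100, so that every group had been sprayed with detergent. The labels give 1 mutant line without its allele, no interval between spray and harvest, and no statement that replicates were separate cultures. P-values therefore measure the spread between these libraries, which may be technical. The groups are called mock.wt, mock.bzip68, H2O2.wt and H2O2.bzip68 below.

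The chloroplast genome is a small circular remnant of a cyanobacterial genome. It encodes core subunits of the photosystems, the chloroplast ATP synthase, an NADH dehydrogenase-like (NDH) complex, the large subunit of Rubisco, and much of the machinery that expresses them. Its genes are transcribed by a bacterial-type polymerase with plastid-encoded core subunits, which needs sigma factors made by nuclear genes, and by phage-type polymerases that are wholly nuclear. In plastids a poly(A) tail marks RNA for decay rather than stabilising it, and the labels do not say whether the mRNA libraries were made by selecting such tails. bZIP68 is a nuclear-encoded G-group bZIP transcription factor, a class that binds the G-box CACGTG.

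Of the 73 rows, 32 could be given a gene name from the coordinates in the authors' peak table and the reference annotation, and 41 are referred to by identifier or only counted. The named rows comprised 14 ribosomal protein rows, 5 NDH rows, 3 photosystem II rows, 2 ATP synthase rows, 1 Rubisco row, 1 RNA polymerase row and 6 others. Class values below cover these named rows only, because rows without a name were not assigned and may hold further members of the same classes. The rows included 5 pairs with identical counts in all libraries, among them rpl2 and rpl23, which lie in the inverted repeat, so the copies cannot be told apart. Members also overlap one another, such as psbD with psbC and atpB with atpE, and the assignment of reads there is uncertain. Among the genes tested by the rule on low counts, 69 members of the 73 passed with all 12 libraries and 70 passed without H2O2.wt replicate 2.

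Short stretches of sequence are shown because the results on protein binding and on psbA refer to them, all read from RefSeq's TAIR10.1 assembly, on which the positions of the authors' TAIR10 peak genes fell. The first is the single G-box, in capitals, that lies inside a peak of bZIP68-FLAG on the chloroplast chromosome, at chrC:82945-82974 on the plus strand, within the coding region of rps3. The second is a whole peak upstream of atpB, at chrC:54361-54381 on the plus strand. The third is the stretch upstream of psbA at chrC:1542-1571 on the minus strand, with TTGACA, the upstream element of bacterial promoters, in capitals.
G-box in the rps3 peak: tgatccattcaaCACGTGcaatttcttttc
peak upstream of atpB: ttaaaataaaaaatatatgaa
psbA upstream element: attttacattggTTGACAtggctatataag
The TTGACA motif began 115 bases before the first base of psbA, on the strand of the gene. Windows from 250 bases before to 50 bases after the start of all 87 chloroplast protein-coding genes held TTGACA on either strand in 17.2%, TATAAT, the downstream element of bacterial promoters, in 41.4% and CACGTG in 2.3%. The windows of atpB and rbcL held none of these 3 motifs on either strand, and that of psbA held only TTGACA. The windows were set on the annotated gene starts, not on mapped transcription starts. No share expected from base composition was worked out, so these values do not tell which genes have such promoter elements.

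The libraries held 8997073 to 10262992 counts each. BZIP68, the targeted gene, had 70 to 102 counts in the wild-type libraries and 0 to 2 in the mutant libraries. Both marker lists for tissue were present in every library, with 10 of 10 leaf genes and 10 of 10 root genes tested, summed leaf marker levels of 74095 to 105320 counts-per-million (CPM) and summed root marker levels of 3090 to 4744 CPM. In such bulk seedlings, fewer cells of a type and less RNA per cell cannot be told apart.

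Chloroplast rows took a small and even share of most libraries, and almost none of the library labelled H2O2.wt replicate 2. The share was 1.138%, 1.093% and 1.065% in mock.wt replicates 1 to 3. In mock.bzip68 it was 1.072%, 1.202% and 1.051%. In H2O2.wt it was 1.097%, 0.0121% and 1.097%, the middle value resting on 1238 counts. In H2O2.bzip68 it was 1.544%, 1.115% and 1.304%, so that 2 of these 3 libraries lay above every other library. The group means were 1.099% ± 0.0373 (SD, n = 3) in mock.wt, 1.108% ± 0.0818 (SD, n = 3) in mock.bzip68, 0.735% ± 0.626 (SD, n = 3) in H2O2.wt and 1.321% ± 0.215 (SD, n = 3) in H2O2.bzip68. Without replicate 2, the mean in H2O2.wt was 1.097%. H2O2.wt replicate 2 was also lowest for the 23 mitochondrial rows, with 0.00119% of counts against 0.00546% to 0.0112% in the other libraries, whereas its leaf marker sum of 80025 CPM and its root marker sum of 3189 CPM lay within the range of the others. The part of these differences in the results below was not tested.

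**Figure D1:**
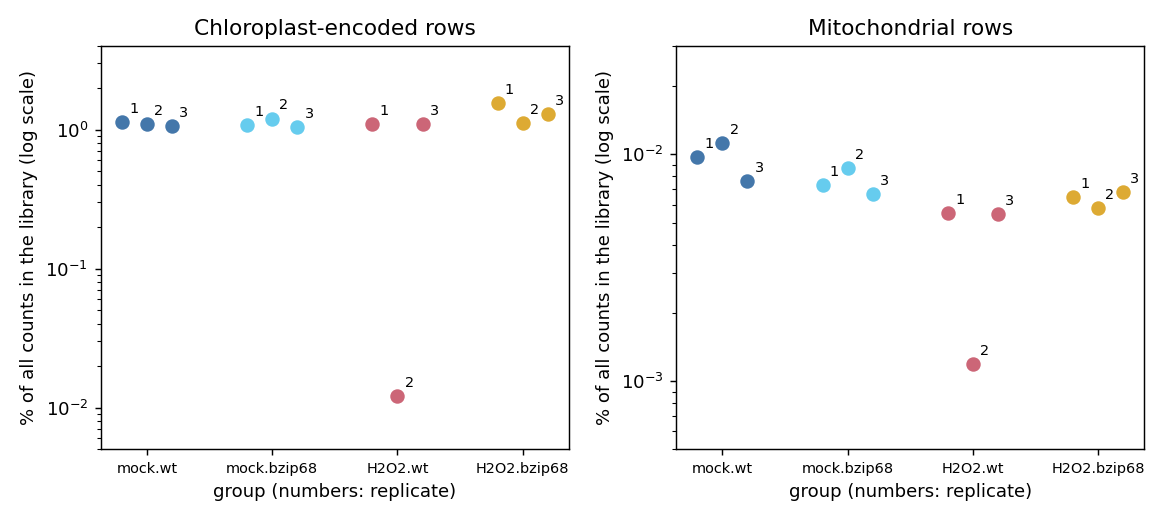
Share of all counts in chloroplast-encoded rows (left) and in mitochondrial rows (right), in percent on log axes, for the 12 libraries; each point is 1 library, coloured by group, and its number is the replicate. H2O2.wt replicate 2 lies at 0.0121% on the left and 0.00119% on the right, below every other library in both.

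The share did not differ detectably between genotypes or sprays. On the log2 scale, H2O2.bzip68 lay 2.42 above H2O2.wt with all libraries and 0.25 above it without H2O2.wt replicate 2, and two-sided exact permutation tests gave p = 0.1 and p = 0.2. The H2O2 response was -2.17 in wild type (exact permutation p = 0.6), or -0.00 without that library, and 0.24 in the mutant (exact permutation p = 0.2). The mutant minus wild type difference after mock spray was 0.01 (exact permutation p = 0.9). With 3 libraries against 3, or 3 against 2, such a test cannot give a p below 0.1. Averaged over both sprays, the genotype difference was 1.22 with all libraries and 0.13 without H2O2.wt replicate 2 (exact permutation p = 0.115 and 0.205), and averaged over both genotypes, the spray difference was -0.96 and 0.12 (p = 0.93 and 0.185). The sign of the last value turned with that 1 library. The mitochondrial share gave another picture, being lower after H2O2 by a log2 difference of -0.88 averaged over both genotypes (exact permutation p = 0.01) and of -0.51 without H2O2.wt replicate 2 (p = 0.015). Most of this average came from wild type, at -1.51, or -0.77 without that library (exact permutation p = 0.1 for each). In the mutant the difference was -0.24 (exact permutation p = 0.2).

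ATP synthase transcripts made up most chloroplast counts. atpB, which encodes the beta subunit (chrC:52660-54156, minus strand), held 45.4% of the chloroplast counts over the 11 libraries without H2O2.wt replicate 2, and the overlapping atpE, which encodes the epsilon subunit, held 11.7%. In CPM, atpB stood at 5567, 5129 and 4792 in mock.wt and at 4173, 6309 and 4949 in mock.bzip68. It stood at 5148, 28.7 and 5238 in H2O2.wt and at 5777, 5291 and 5806 in H2O2.bzip68. Apart from H2O2.wt replicate 2, its highest library exceeded its lowest only 1.51-fold. The mutant groups overlapped each other and both wild-type groups overlapped, whereas the 3 H2O2.bzip68 libraries lay above the remaining H2O2.wt libraries by a small margin. Per kb of exon over those 11 libraries, and among the 32 named rows, which alone have a length, atpB (3533 CPM per kb) and atpE (3417 CPM per kb) stood far above the next members, rpl16 (1683 CPM per kb) and rpl2 (795 CPM per kb), both encoding proteins of the large ribosomal subunit, and above ndhK (516 CPM per kb), which encodes an NDH subunit.

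The named photosystem II and Rubisco transcripts, by contrast, were low for genes that are among the most strongly transcribed in leaves. psbA (chrC:383-1444, minus strand), which encodes the D1 reaction centre protein, held 30.7 CPM per kb over those 11 libraries, and rbcL (chrC:54958-56397, plus strand), which encodes the large subunit of Rubisco, held 30.6 CPM per kb. The other named photosystem II rows were psbD, for the D2 reaction centre protein, with 221 CPM per kb and the overlapping psbC, for the antenna protein CP43, with 211 CPM per kb. rpoA, for the alpha subunit of the plastid polymerase, had 74.4 CPM per kb, and clpP, for a protease subunit, had 310 CPM per kb.

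The named ATP synthase, ribosomal protein and NDH rows kept similar proportions in the 11 libraries without H2O2.wt replicate 2, and the smaller classes varied more. ATP synthase rows held 52.7% to 59.7% of the chloroplast counts there, ribosomal protein rows 22.0% to 24.3% and NDH rows 4.97% to 5.86%. Photosystem II rows held 4.15% to 6.56% there, rows without a name 5.26% to 8.49%, the polymerase row rpoA 0.303% to 0.877% and rbcL 0.19% to 1.07%. In H2O2.wt replicate 2, ATP synthase rows held 28.6%, ribosomal protein rows 19.95% and NDH rows 1.54%. rbcL and psbA instead held more, with 5.74% for rbcL and 5.49% for psbA, the latter against 0.0909% to 1.15% in the other libraries, whereas psbD had only 13 of the 1238 counts. Rows without a name also held more, 28.6%, and the 6 other named rows held 5.49% against 1.97% to 2.76%.

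The loss in H2O2.wt replicate 2 was therefore uneven across members. Set against replicates 1 and 3 of the same group, scaled to library size, its median member stood at 1.35%, and 34 of the 73 members stood under 1%. atpB had 305 counts against 103947 in the other two libraries together, which is 0.585% of their level (95% exact interval 0.521% to 0.654%, counting error only). ndhK stood at 0.245%, atpE at 0.382% and rpl16 at 0.525%. At the other end, psbA had 68 counts against 260 in the other two libraries, which is 52.1% (39.3% to 68.3%), and rbcL had 71 against 645, which is 21.9% (16.9% to 28.1%). In all, 17 members stood over 10% and 6 over 30%, and 2 members without a matched name, ATCG00180 and ATCG00190, stood at 82.6% and 61.3%; they are named here because their values were the highest. At the 0 end lay 12 members without a count in that library. For the longer ycf1 row (ATCG01130), for a large protein of the chloroplast envelope, with 1142 counts in the other two libraries, 0 counts allow a level of up to 0.524%, from 3 counts.

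**Figure D2:**
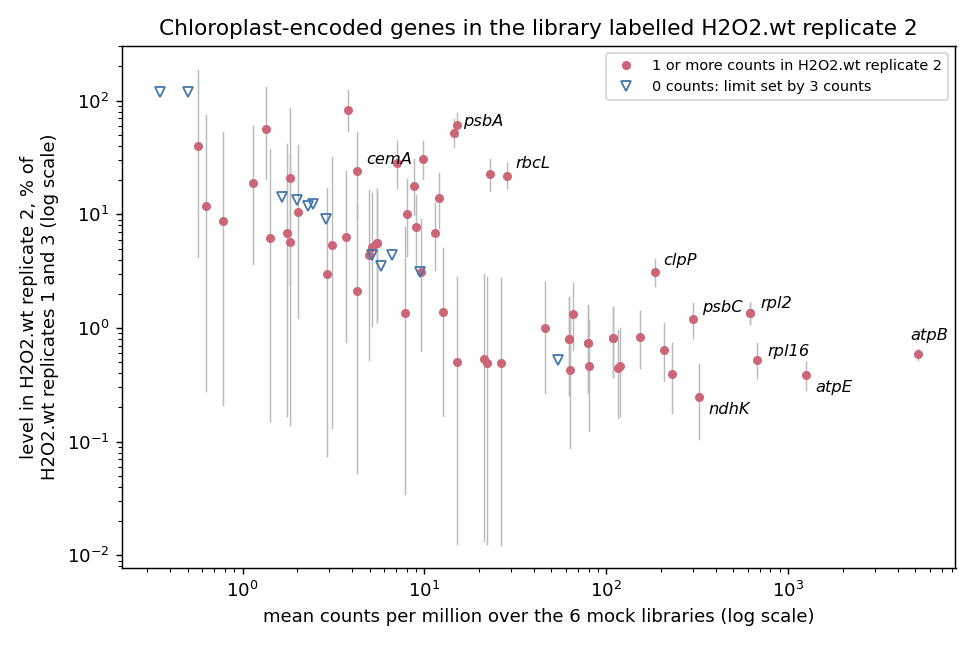
Level of each chloroplast-encoded gene in the library labelled H2O2.wt replicate 2, as a percentage of its level in H2O2.wt replicates 1 and 3, against its mean level over the 6 mock libraries, both on log axes. Points are genes, grey lines exact 95% intervals for counting error, and open triangles mark the limit that 3 counts set for the 12 genes with 0 counts; psbA at 52.1% and rbcL at 21.9% lie far above atpB at 0.585%.

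The percentage left was only loosely related to other features. Across 68 rows, counting each identical pair once, its Spearman rho with the mean level in mock libraries was -0.23. Across the 30 named rows it was 0.23 with GC content, 0.34 with exon length and 0.09 with the longest run of A on the strand of the gene. These values describe rows of shared libraries and carry no test.

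psbA and rbcL also varied widely among the other libraries. psbA stood at 12.3, 11.5 and 11.6 CPM in mock.wt and at 12.2, 11.8 and 27.5 CPM in mock.bzip68. It stood at 12.2, 6.39 and 13.8 CPM in H2O2.wt and at 175, 10.7 and 59.3 CPM in H2O2.bzip68. Replicates 1 and 3 of H2O2.bzip68 thus lay above every other library, while replicate 2 of the same group was the lowest of the 11 libraries without H2O2.wt replicate 2. rbcL was at 162 and 65.5 CPM in the same pair of H2O2.bzip68 libraries, at 21.6 CPM in replicate 2, and between 21.4 and 40.7 CPM in the other 8 libraries of those 11. Over the 59 members with a mean of at least 20 counts, the highest of the 11 libraries exceeded the lowest by a median of 2.84-fold, and H2O2.bzip68 replicate 1 was the highest library for 40 of them.

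**Figure D3:**
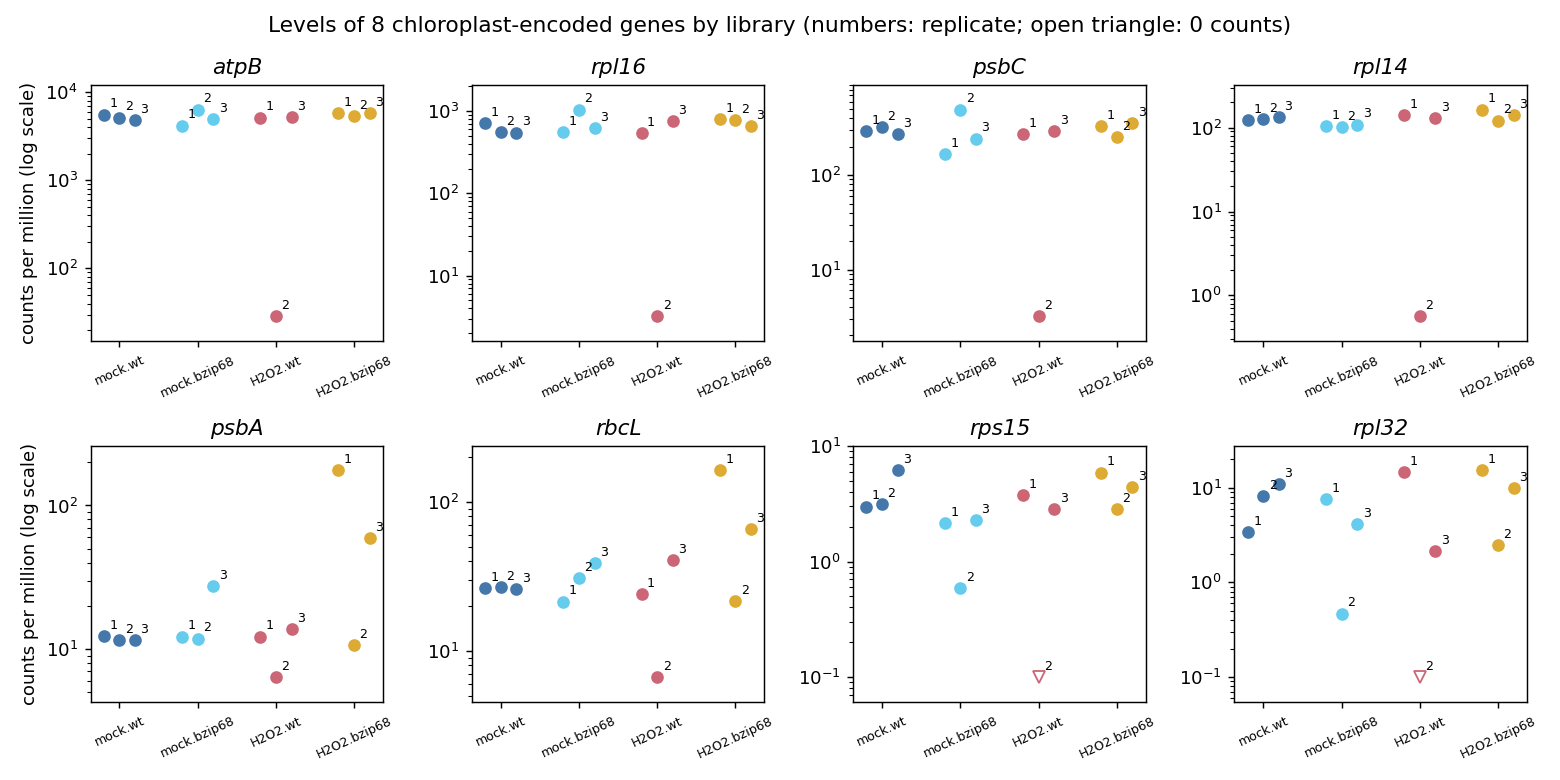
Counts-per-million of 8 chloroplast-encoded genes on log axes by group, each point 1 library with its replicate number, and an open triangle for 0 counts. atpB, rpl16, psbC and rpl14 are lowest in H2O2.wt replicate 2, while psbA and rbcL are highest in H2O2.bzip68 replicates 1 and 3, and rps15 and rpl32 are also low in mock.bzip68 replicate 2.

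Other members were low in single libraries. rpl32, for a large-subunit ribosomal protein, had 32, 73 and 110 counts in mock.wt and 74, 4 and 38 counts in mock.bzip68. It had 148, 0 and 21 counts in H2O2.wt and 140, 23 and 93 counts in H2O2.bzip68. Replicate 2 was thus the lowest of its group in both mutant groups, and H2O2.wt replicate 3 and mock.wt replicate 1 were low as well. Of the 59 members, 22 had their lowest value of the 11 libraries in mock.bzip68 replicate 2 or H2O2.bzip68 replicate 2, which are 2 of the 11. The 59 count both rows of identical pairs. rps15, for a small-subunit protein, had 21, 5 and 21 counts in mock.bzip68 against 28, 28 and 62 in mock.wt. rpl32 was chosen for this description after its values were seen.

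**Figure D4:**
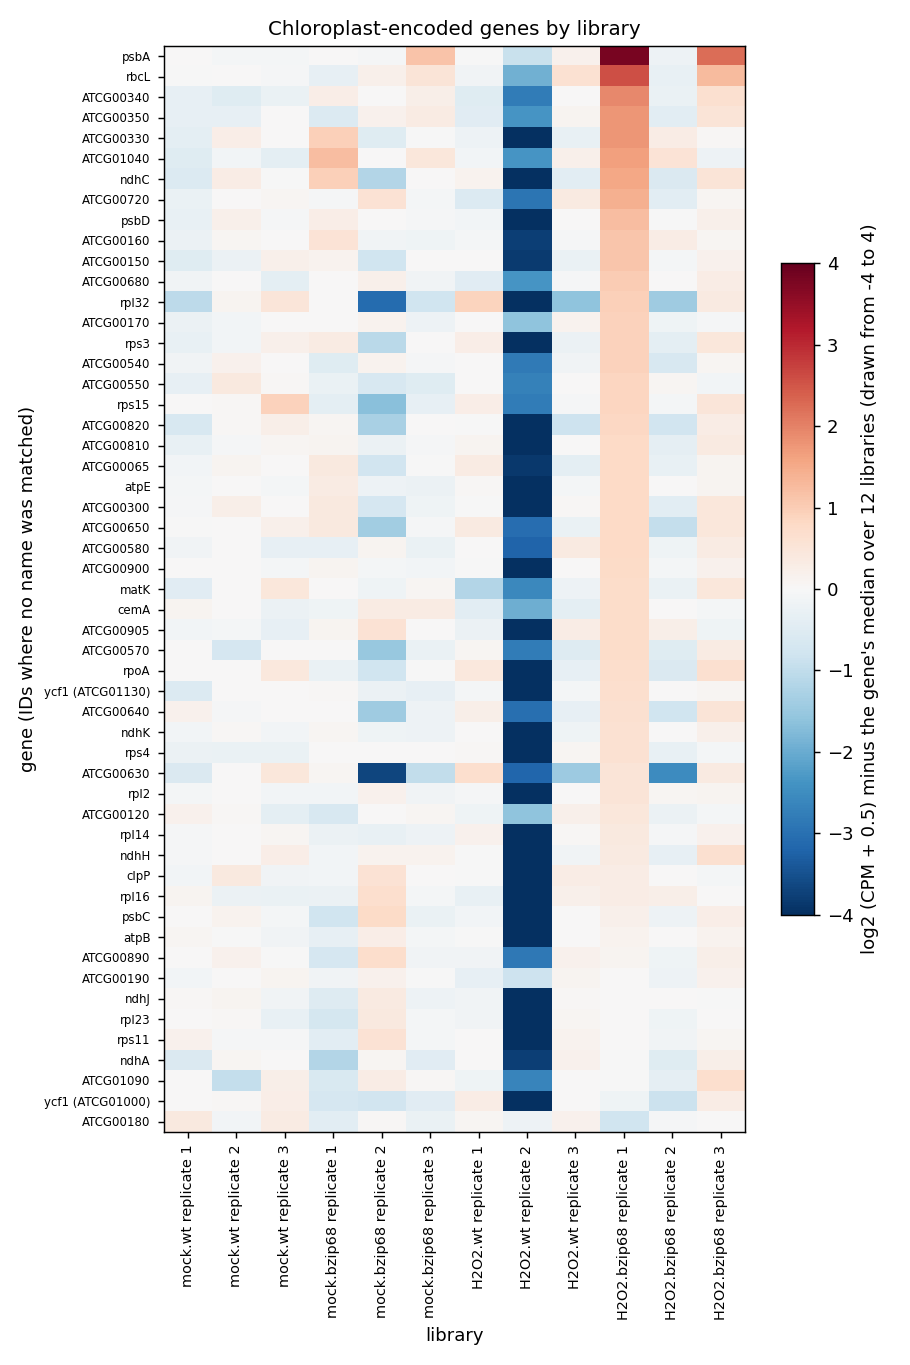
Level of 53 chloroplast-encoded rows (mean of at least 20 counts, identical pairs drawn once, 1 row not drawn) in the 12 libraries, as the log2 difference of CPM + 0.5 from the median of each row, with rows ordered by H2O2.bzip68 replicate 1. The median was taken over the 11 libraries without H2O2.wt replicate 2, although the label of the colour bar names 12. H2O2.wt replicate 2 is low for nearly all rows, least so for psbA, ATCG00180 and ATCG00190, and H2O2.bzip68 replicate 1 is the highest of the other 11 libraries for 37 rows.

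No member passed the test for a difference in any of 7 comparisons with all 12 libraries. The test was edgeR's quasi-likelihood test with Benjamini-Hochberg adjustment over all genes tested, at an adjusted p under 0.05. For mutant against wild type after mock spray, 0 of 69 members passed, against 0.214% of all genes, and 0 had an unadjusted p under 0.05, against 10.1% of all genes. After H2O2 spray, 0 passed against 0.0714% of all genes, and 10 had an unadjusted p under 0.05, all with positive values, against 9.23% of all genes. For H2O2 against mock, 0 members passed in wild type, where 9.74% of all genes did, and 0 in the mutant, where 7.39% did. An unadjusted p under 0.05 was found for 2 members in each, against 21.9% of all genes in wild type and 19.5% in the mutant. The difference between the responses gave 0 members against 0% of all genes, with 3 members and 6.47% of all genes at an unadjusted p under 0.05. The genotype difference averaged over sprays gave 0 members against 0.434% of all genes, with 5 members and 12.4% of all genes at an unadjusted p under 0.05. The spray difference averaged over genotypes gave 0 members against 16%, with 0 members and 26.9% of all genes at an unadjusted p under 0.05. DESeq2 and limma's voom test also called 0 members in each of the 7 comparisons.

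The precision of that fit was set by H2O2.wt replicate 2, since all groups share 1 estimate of the spread per gene. The median standard error of a member's log2 difference for H2O2 against mock in the mutant was 0.77 with that library and 0.31 without it, against 0.18 for all genes in both fits. Median member differences also moved with it. The median for H2O2 against mock in wild type was -0.55 with that library and 0.02 without it, and the median for mutant against wild type after H2O2 was 0.85 with it and 0.27 without it. In the comparisons without H2O2.wt libraries, the medians stayed at 0.00 for the genotypes after mock spray and 0.39 for the H2O2 response of the mutant. The edgeR value compares mean counts, so the same library moved it less than it moved the log2 share.

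**Figure D5:**
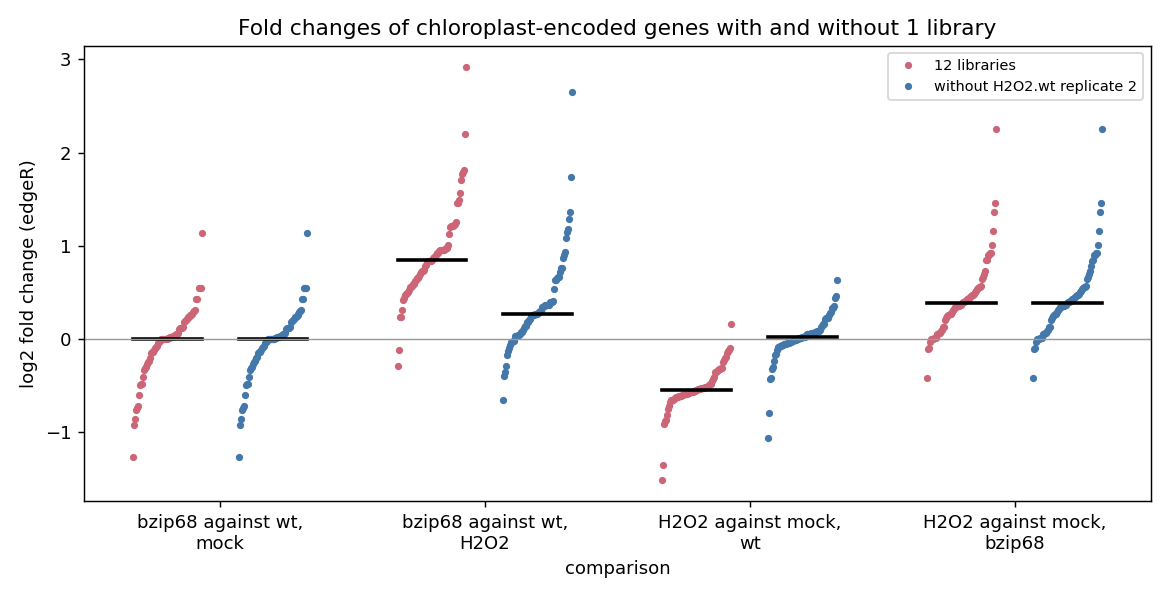
Log2 fold changes of the chloroplast-encoded genes in the 4 simple comparisons, with all 12 libraries (red, 69 genes) and without H2O2.wt replicate 2 (blue, 70 genes); each point is a gene, sorted by value, and black bars are medians. The median moves from -0.55 to 0.02 for H2O2 against mock in wild type and from 0.85 to 0.27 for mutant against wild type after H2O2.

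Without H2O2.wt replicate 2, 1 member passed. rpl14, for a large-subunit ribosomal protein (chrC:80696-81064, minus strand), stood at 105, 101 and 109 CPM in mock.bzip68 and at 163, 121 and 140 CPM in H2O2.bzip68, so that the groups did not overlap. Its log2 difference was 0.43 ± 0.12 (SE, edgeR adjusted p = 0.0498), against 7.21% of all genes called in that comparison, and 10 of 70 members had an unadjusted p under 0.05, all positive, against 19.4% of all genes. In wild type, rpl14 stood at 122, 125 and 133 CPM after mock spray and at 140, 0.56 and 129 CPM after H2O2. The call was lost with all 12 libraries (edgeR adjusted p = 0.88), without H2O2.bzip68 replicate 1 as well (0.212), without mock.bzip68 replicate 2 as well (0.0925) and with members scaled to the chloroplast total (0.476). With the replicate number as a block, 2 members passed in this comparison without H2O2.wt replicate 2, rpl14 at 0.42 (edgeR adjusted p = 0.0386) and rps15 at 1.398 ± 0.34 (edgeR adjusted p = 0.019).

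In the other 6 comparisons without that library, 0 members passed by edgeR. The background was 0.148% of all genes for mutant against wild type after mock spray, 0.0876% after H2O2, 6.96% for H2O2 against mock in wild type, 0% for the difference between responses, 0.301% for the averaged genotype difference and 13.8% for the averaged spray difference. Unadjusted p-values under 0.05 numbered 4, 8, 0, 5, 7 and 2 of 70 members in the same order, against 10.1%, 6.81%, 18.8%, 6.53%, 9.83% and 25.2% of all genes.

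The intervals show which sizes of difference these libraries allow. Without H2O2.wt replicate 2, the log2 difference of atpB between mutant and wild type was -0.01 after mock spray (95% interval -0.31 to 0.30) and 0.11 after H2O2 (-0.23 to 0.46). Its H2O2 response was 0.01 in wild type (-0.33 to 0.35) and 0.13 in the mutant (-0.18 to 0.44). For psbA the H2O2 response of the mutant was 2.25 ± 0.84 (SE; 95% interval 0.30 to 4.19, edgeR adjusted p = 0.187), so its interval spans a wide range. psbA passed for H2O2 against mock when H2O2.bzip68 replicate 2 was left out instead, at 2.77 in the mutant (edgeR adjusted p = 0.017) and 1.32 averaged over genotypes (edgeR adjusted p = 0.0445). For rbcL the same response was 1.46 ± 0.62 (SE; edgeR adjusted p = 0.247).

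The H2O2 response of the mutant was positive for most members in every class of named rows. Even so, only rpl14 passed the test, and only without H2O2.wt replicate 2. Without H2O2.wt replicate 2, values were positive for 63 of 70 members, with a median of 0.39 against -0.00 for all genes. Among the named rows, values were positive for 13 of 14 ribosomal protein rows, 5 of 5 NDH rows, 3 of 3 photosystem II rows and both ATP synthase rows. The median fell to 0.10 without H2O2.bzip68 replicate 1 as well and to 0.13 with members scaled to the chloroplast total, which takes out a shift common to all members.

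Several of the members with the smallest p in the remaining comparisons stood on low counts. For H2O2 against mock in wild type it was matK, a splicing factor gene for group II introns, with 20, 28 and 44 counts after mock spray and 11, 1 and 26 after H2O2. Its log2 difference was -1.35 ± 0.57 (SE, edgeR adjusted p = 0.175), or -0.79 without H2O2.wt replicate 2 (edgeR adjusted p = 0.357). It passed at -2.45 (edgeR adjusted p = 0.023) when H2O2.wt replicate 3 was left out instead. That fit kept H2O2.wt replicate 2 with its 1 count beside replicate 1 with 11, so the call rests in part on the library with almost no chloroplast counts. For mutant against wild type after mock spray it was, without H2O2.wt replicate 2, the shorter ycf1 row (ATCG01000), with 165, 163 and 215 counts in mock.wt and 106, 86 and 117 in mock.bzip68, at -0.76 ± 0.23 (SE, edgeR adjusted p = 0.239); the groups did not overlap. With 12 libraries it was ATCG00180, at -0.49 ± 0.27 (SE, edgeR adjusted p = 0.59).

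After H2O2 spray, the member with the smallest p between genotypes was ATCG00730 with 12 libraries and ATCG00680 without H2O2.wt replicate 2. ATCG00730 had 2, 2 and 17 counts in H2O2.wt and 47, 15 and 27 in H2O2.bzip68, so that the groups overlapped, at 2.20 ± 0.67 (SE, edgeR adjusted p = 0.367). ATCG00680 had 178, 46 and 230 counts in H2O2.wt and 456, 223 and 282 in H2O2.bzip68, at 0.76 ± 0.26 without that library (SE, edgeR adjusted p = 0.577). For the averaged genotype difference it was cemA, an envelope membrane protein gene, at 0.71 ± 0.27 with 12 libraries (SE, edgeR adjusted p = 0.292), and the shorter ycf1 row (ATCG01000) at -0.56 ± 0.17 without H2O2.wt replicate 2 (SE, edgeR adjusted p = 0.257). For the difference between responses it was ATCG00130 at 1.68 ± 0.61 with 12 libraries (SE, edgeR adjusted p = 0.721), and rps15 at 1.68 ± 0.62 without that library (SE, edgeR adjusted p = 0.74). For the averaged spray difference it was psbA at 1.06 ± 0.62 with 12 libraries (SE, edgeR adjusted p = 0.333), and rpl14 at 0.26 ± 0.09 without that library (SE, edgeR adjusted p = 0.0823).

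Scaled to the chloroplast total of each library, which takes out a change common to all members, 0 members passed edgeR's test in any comparison, with or without H2O2.wt replicate 2. Of all genes, 0% to 16.1% passed across the comparisons with all libraries and 0% to 13.8% without that library. Unadjusted p-values under 0.05 numbered 0 to 5 of 69 members with all libraries, against 6.5% to 26.9% of all genes. Without that library they numbered 0 to 8 of 70 members, against 6.5% to 25.2% of all genes. The smallest adjusted p was 0.113, for ATCG00580 in the averaged spray difference without H2O2.wt replicate 2, at 0.32 ± 0.12 (SE).

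A few nuclear genes that serve plastid transcription and RNA turnover passed the test after H2O2. Of 21 listed transcription genes, all measured, 1 rose and 2 fell in wild type, where 9.74% of all genes passed, and 2 rose and 1 fell in the mutant, where 7.39% did. The median log2 difference of this list was 0.10 in wild type and 0.12 in the mutant, against -0.00 for all genes in both. SIG5, the sigma factor that drives transcription of psbD in response to light and stress, stood at 94.0, 84.2 and 101 CPM in mock.wt and at 30.6, 29.5 and 18.9 CPM in H2O2.wt. It stood at 72.8, 114 and 88.7 CPM in mock.bzip68 and at 38.7, 35.9 and 29.4 CPM in H2O2.bzip68, so that neither pair of groups overlapped. SIG5 fell by 1.82 ± 0.19 on the log2 scale in wild type (SE, edgeR adjusted p = 1.97e-05) and by 1.403 ± 0.19 in the mutant (edgeR adjusted p = 0.000258). SIG1, another sigma factor, fell by 0.52 ± 0.13 in wild type (edgeR adjusted p = 0.0151) and stood at -0.36 ± 0.13 in the mutant (edgeR adjusted p = 0.109). pTAC6, a protein of the plastid polymerase complex, rose by 0.75 ± 0.15 in wild type (edgeR adjusted p = 0.00303) and by 0.51 ± 0.14 in the mutant (edgeR adjusted p = 0.0436). pTAC3, of the same complex, passed only in the mutant, at 0.45 ± 0.12 (edgeR adjusted p = 0.0359). In wild type pTAC3 stood at 0.40 ± 0.12 (edgeR adjusted p = 0.0509).

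Of 9 listed plastid RNA-binding and RNA-processing genes, all measured, 2 rose and 0 fell in each genotype, against the same 9.74% and 7.39% of all genes, and the list medians were 0.11 in wild type and 0.09 in the mutant. CP29A, which encodes a chloroplast RNA-binding protein, stood at 412, 358 and 277 CPM in mock.wt and at 794, 907 and 897 CPM in H2O2.wt. It stood at 393, 469 and 393 CPM in mock.bzip68 and at 913, 1031 and 998 CPM in H2O2.bzip68. CP29A rose by 1.31 ± 0.15 (SE, edgeR adjusted p = 2.45e-05) in wild type and by 1.23 ± 0.14 in the mutant (edgeR adjusted p = 6.13e-05). RNJ, which encodes a chloroplast ribonuclease J, rose by 0.95 ± 0.13 in wild type (edgeR adjusted p = 0.000208) and by 0.83 ± 0.13 in the mutant (edgeR adjusted p = 0.00107). The value of CP29A in H2O2.wt replicate 2, 907 CPM, lay with the other H2O2 libraries, and so did that of SIG5. In the genotype comparisons 0 of these 30 genes passed edgeR's test, against 0.0714% to 0.434% of all genes with 12 libraries. Among the leaf markers, the Rubisco small subunit genes RBCS1B (-0.97 ± 0.16, edgeR adjusted p = 0.0011) and RBCS2B (-0.52 ± 0.12, edgeR adjusted p = 0.00875) fell in wild type with 12 libraries, and 1 leaf marker fell without H2O2.wt replicate 2. In the mutant 0 of 10 leaf markers passed, and 9 of the 10 had a negative value. Of 10 root markers, 1 fell in wild type and 5 fell in the mutant, where 9.74% and 7.39% of all genes passed. Among these root markers 1 and 0 had a positive value, with median log2 differences of -0.33 and -0.70. In the difference between the responses 0 leaf and 0 root markers passed edgeR's test, but 0% of all genes did, so that count says nothing about the markers. Whether tissue proportions have a part in the plastid values was not tested.

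Some peaks of bZIP68-FLAG lay on the chloroplast chromosome in the larger of the authors' peak lists. The authors called peaks from chromatin of 8-day-old seedlings expressing bZIP68-FLAG, with GFP-FLAG seedlings as the control, and the labels give no spray for them. The larger of their lists held 10 peaks on the chloroplast chromosome, beside 5734 nuclear peaks and 4 on the mitochondrial chromosome. Their stricter list held 0 on the chloroplast chromosome. Of the 10 peaks, 6 were under 100 bases wide, against 83 of 5734 nuclear peaks. The median width was 72 bases for the 10 and 949 for the nuclear peaks. The authors' scores of the 10 ranged from 125 to 1104, with a median of 281 against 149 for the nuclear peaks. The highest, near matK, ranked 33 in the larger list. Peaks were assigned to genes that include psbD, atpB, rbcL, rps3 and rps15. The chloroplast genome of 154478 bases held 12 copies of CACGTG, and the peaks, which covered 4.79% of it, held 1 of them, shown above in rps3. Within the 30 nuclear plastid genes, SIG4, pTAC2, pTAC3, pTAC12, CP29A and CP33A each had 1 peak in the larger list and 0 in the stricter one, and SIG5 had 0 in both. The larger list assigned peaks to 5412 nuclear genes in all. Whether the 30 genes held more than their share of these was not tested.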

How the data were processed

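Raw counts per gene were deposited by the authors, per the file headers, for 12 mock and H2O2 libraries; TopHat2 2.1.0, RSEM 2.1.30 and the TAIR10 build are named in the submitters' processing notes, without roles. Whether counting used strand is not given in the sources used here. Of the columns in the table, 6 matched no sample's labels and were not used. The peak lists hold the authors' score, which grows as the p-value from MACS 1.4.3 falls, per the file headers.

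Counts were fitted with edgeR 4.0.16 (TMM scaling, filterByExpr by group, robust quasi-likelihood fit, 1 mean per group) on 18205 genes with 12 libraries and 18259 without H2O2.wt replicate 2, with Benjamini-Hochberg adjustment over all genes in each comparison. limma 3.58.1 (voom), DESeq2 1.42.0, other scalings, filters, left-out libraries and a replicate block were alternatives. Shares were compared by two-sided exact permutation tests of log2 percentages. The procedures were tested on simulated data. Intervals on counts are exact 95% intervals and cover counting error only, since reads are not independent molecules.

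Identifiers were matched to RefSeq names through the positions and start distances in the authors' peak table (23 rows), RefSeq notes on nuclear copies checked with BLAST 2.17.0, identical rows or elimination. All 35 distances matched exactly 1 gene.

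Members and lists were chosen with earlier results of these data known. Members were named by rule: the 6 highest rows per kb, the highest of each class, and the called members or, with none, the one with the smallest p in each comparison; from the nuclear lists, up to 4 per comparison. psbD, rpl32, ATCG00180 and ATCG00190 were named after their values were seen. Values of 1 member are not reported here.

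Shared replicate numbers carry no meaning in the labels. Deviations from group means correlated over all genes at 0.37, 0.49 and 0.18 for replicates 1 to 3 of mock.bzip68 and H2O2.bzip68. By these data the numbers may pair the samples of that comparison, and no other comparison had all 3 correlations over 0.1. The main fit and the permutation tests of the share did not use such a pairing, which entered only as the replicate block among the alternatives. No 2 libraries of a group agreed within counting error.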

Additional observations from a re-analysis of the deposited data

How the results depend on the processing

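With all 12 libraries, the count of members called stayed at 0 in all 7 comparisons under DESeq2, voom, median-ratio scaling, no filter on low counts, scaling to the chloroplast total, and the replicate block (0 for each), and, in the comparisons between 2 groups, with only those groups in the fit. Leaving out single libraries moved the count to between 0 and 2 for H2O2 against mock in the mutant, 0 and 2 in wild type and 0 and 1 for their average, and left it at 0 in the other 4 comparisons. Without mock.bzip68 replicate 2 and H2O2.wt replicate 2 together, 1 member passed in the mutant response (psbC) and 1 in the averaged spray difference (ATCG00580). With the replicate block and H2O2.wt replicate 2 left out, 2 members passed in the mutant response. The block changed no other count of calls.

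The log2 difference in chloroplast share between genotypes after mock spray ranged from -0.049 (without mock.bzip68 replicate 2) to 0.048 over single left-out libraries, and was -0.012 without mock.wt replicate 3. The ranges were 0.25 to 3.51 for the genotypes after H2O2, -3.25 to -0.00 for the response of wild type, 0.12 to 0.36 for that of the mutant, 0.24 to 3.50 for the difference between responses, 0.13 to 1.76 for the averaged genotype difference and -1.51 to 0.12 for the averaged spray difference. The averaged spray difference was 0.061 without H2O2.bzip68 replicate 1 and H2O2.wt replicate 2 together, an alternative added after the data were seen.

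For single members, none of them called, signs turned in 11 cases. rpl14 in the averaged spray difference was -0.03 with 12 libraries, 0.26 without H2O2.wt replicate 2, 0.016 without H2O2.bzip68 replicate 2, 0.24 without both libraries that stood apart, and 0.23 with the block and H2O2.wt replicate 2 left out. It was 0.081 on the chloroplast total, 0.13 on that total without H2O2.wt replicate 2, 0.059 on median ratios without it, and 0.20 without it and H2O2.bzip68 replicate 1. ycf1 (ATCG01000) in the averaged genotype difference turned from -0.26 to 0.37 under voom and 0.022 without H2O2.wt replicate 1, with a range of -0.56 to 0.022 over single left-out libraries. That range was -0.27 to 0.26 for rpl14. ATCG00680 after H2O2 turned from 1.21 to -0.29 on the chloroplast total, but was 0.76 without H2O2.wt replicate 2 and 0.52 on that total without it. The causes were not tested. Depth limits members with few counts, most of all in H2O2.wt replicate 2 with its 1238 chloroplast counts.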
